A study of Mus musculus with 12 samples.

Results

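RNA of tumor-associated macrophages from mouse melanomas given a CSF1 receptor inhibitor together with a CD40-activating antibody was compared with RNA from melanomas given either agent alone. The 3 combination libraries were set against the mean of the 2 single-agent groups at equal weight, 3 libraries against 6. A gene was taken as beyond both single agents when it passed the test in that comparison and lay on the same side of each single agent. Of 16027 genes tested, 85 met this, 66 of them higher and 19 lower in the combination. They are described here as the genes beyond both agents.

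CD40 is a receptor of the TNF receptor family on macrophages, dendritic cells and B cells. When bound by its ligand or by an agonist antibody it signals through TRAF adaptors to NF-kB and MAP kinases, which induce cytokines, co-stimulatory molecules and antigen presentation. CSF1R is the receptor for CSF1 and IL-34, on which macrophages depend for survival and differentiation. Interferon gamma, made by T cells and NK cells, acts on macrophages through its receptor and induces guanylate-binding proteins, chemokines and the genes of peptide loading.

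The groups were the combination (CSF1Ri + CD40 agonist), CD40 agonist, CSF1Ri and Control, with 3 libraries each. The antibody was FGK4.5, given into the peritoneum at 10 mg/kg every 3 days for up to 10 doses, and CSF1Ri was PLX6134 in chow at 600 mg/kg, a compound taken to inhibit CSF1R as its label implies. Per the labels' protocols the other mice received normal chow or PBS as vehicle. Treatment began 30 days after local tumor induction, below a total tumor volume of 100 mm3, and lasted 30 days or until an endpoint of 2 cm3. Every group carried the same engineered melanoma alleles, the mice were age-matched without a stated age, and at least 3 tumors were pooled for each library. The labels call the cells tumor-associated macrophages, and no sorting gate for them is given in the sources used here.

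Library totals of estimated counts were 34168389 to 39818657 in the combination, 26316328 to 33948213 in the CD40 agonist group, 26665394 to 32880763 in the CSF1Ri group and 28709482 to 31698533 in Control. The label was checked against macrophage genes. Csf1r, Adgre1, Cd68 and Lyz2 were detected in every library. Adgre1, which encodes F4/80, averaged 262 CPM (counts per 1000000 with TMM-scaled library sizes) in the combination, 259 with the CD40 agonist, 276 with CSF1Ri and 222 in Control, and Cd68, a lysosomal protein of macrophages, 593, 670, 702 and 669 CPM in the same order of groups. Markers of other cell types were also present, so a difference between groups cannot be told apart from a difference in the cells each library held, and in such bulk samples fewer cells of a type cannot be told apart from less RNA per cell. A principal component analysis set 3 libraries away from their groups. They were combination replicate 2 (the second component, -105.8, its group otherwise -32.5 and -55.6), CSF1Ri replicate 3 (the second component, 32.7, otherwise -22.2 and -24) and CD40 agonist replicate 1 (the third component, -116.4, otherwise -12.8 and 3.7).

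The main comparison set the combination against the average of the single agents, so a gene level with one agent and far from the other can pass it. H2-Aa and Pmaip1, each 0.21 on the log2 scale over the CD40 agonist, are such genes, and 0 of the 85 were called against the CD40 agonist alone. The genes beyond both agents that were higher included Tnf and Tnfaip3 of the NF-kB response, Cd40 itself, interferon gamma response genes such as Gbp2 and Cxcl10, MHC class I genes such as H2-K1, and glycolytic enzymes such as Gapdh. Those that were lower included the interferon gamma receptor chain Ifngr1, the MAP kinase phosphatase Dusp6, the transcription factors Mef2c and Tcf7l2 and the glucocorticoid-induced gene Fkbp5. edgeR's quasi-likelihood test with Benjamini-Hochberg adjustment called 85 genes below an adjusted p of 0.05, which is 0.53% of all genes tested. The 66 higher are 0.412% and the 19 lower 0.119%, and every called gene also lay beyond both single agents by sign, as 34% of all genes did upward and 32.7% downward. With library totals in place of TMM scaling the split was 47 higher and 44 lower, and the median log2 difference of all genes was -0.08 against 0.02. The smallest adjusted p was 0.0231.

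The count depended on which libraries entered the fit. It fell to 0 without CD40 agonist replicate 2, CSF1Ri replicate 2, Control replicate 1 or Control replicate 3, and to 0 when the 3 Control libraries were left out of the fit (1915 genes at an unadjusted p below 0.05, against 2277 in the fit of all 12 libraries). It was 1, 5 and 6 without CD40 agonist replicate 3, CSF1Ri replicate 1 and CD40 agonist replicate 1, and 40, 44 and 45 without Control replicate 2, combination replicate 3 and combination replicate 1. Without combination replicate 2 it was 116, and without CSF1Ri replicate 3 it was 85. Each of the 85 genes kept its direction in every one of these fits, which the choice of the genes favours, and their largest adjusted p with 1 library left out was between 0.0718 and 0.141. The genes just inside the threshold were Prkab2, H2-Q6 and Vdac2 (each at an adjusted p of 0.0496), and those just outside were Gbp3 (log2 fold change 1.63, 0.0502), B2m (0.5, 0.0502) and Ube2l6 (0.91, 0.0508).

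Taken separately, the gaps to the single agents were unequal. Against the CD40 agonist alone edgeR called 0 genes, with 1450 at an unadjusted p below 0.05 and a smallest adjusted p of 0.0793, while DESeq2 called 275 and limma voom 7. Against CSF1Ri alone it called 311 genes (1.94%), 199 higher (1.24%) and 112 lower (0.699%) in the combination. Both comparisons share the combination libraries with the main one, so they give it no separate support. Of the 85 genes, 77 had the larger gap to CSF1Ri and 8 to the CD40 agonist. These 8 were Sulf1, Gldn, Cd69, Tspo and Nfkb2, which were higher, and Mef2c, Pou2f2 and Zfp212, which were lower.

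**Figure D1:**
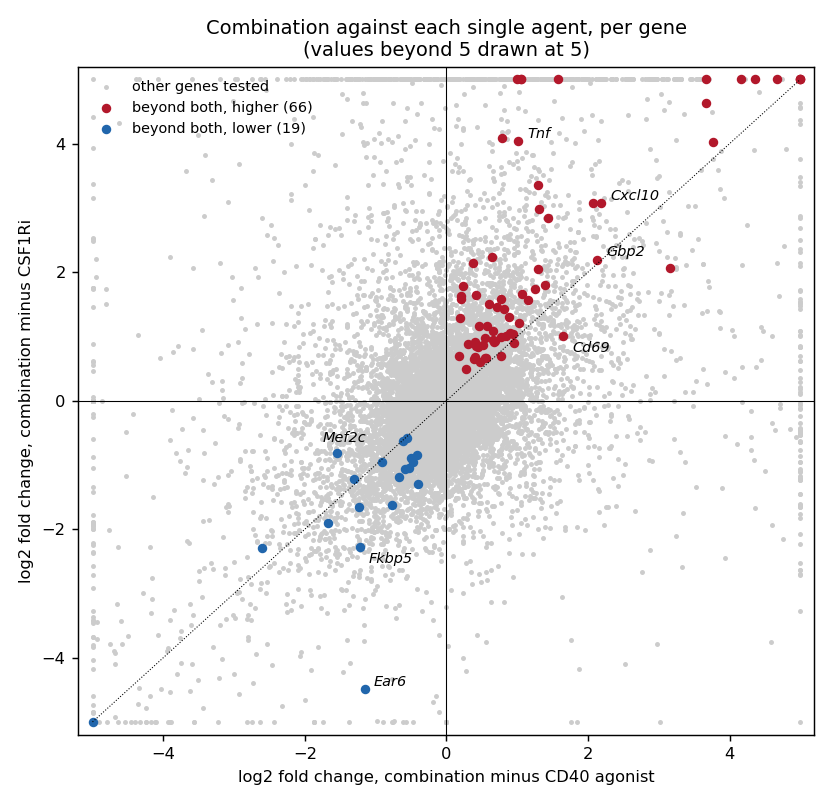
Each point is a gene, with its log2 fold change in the combination against the CD40 agonist on the horizontal axis and against CSF1Ri on the vertical axis, both drawn at 5 where larger; the dotted line marks equal gaps. The 66 higher genes (red) lie in the upper right, mostly above the line, and the 19 lower genes (blue) in the lower left, mostly below it, so the gap to CSF1Ri was the larger for 77 of 85.

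All 3 combination libraries lay outside the range of the 6 single-agent libraries for 72 of the 85 genes (53 higher and 19 lower), as they did for 5.55% of all genes (3.05% above and 2.5% below). They lay outside all 9 other libraries, Control included, for 69 (50 higher and 19 lower), as for 4.08% of all genes. The choice of genes with extreme combination values favours these counts, so nothing is read from them. The Control mean lay between the single-agent means for 38 of the 66 higher genes, above both for 18 and below both for 10. For the 19 lower genes it lay between for 10, above both for 5 and below both for 4.

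Genes of CD40 and TNF receptor signaling come first. Tnf, the inflammatory cytokine (ENSMUSG00000024401, chr17:35199381-35202007), had 142, 266 and 96.3 CPM in combination replicates 1, 2 and 3, against 115, 76.2 and 58.8 CPM with the CD40 agonist, 11.1, 12.5 and 7 CPM with CSF1Ri and 24.7, 20.5 and 21.7 CPM in Control. The combination overlapped the CD40 agonist, since its replicate 3 was below CD40 agonist replicate 1, and every library of both groups was above all CSF1Ri and Control libraries. Its log2 fold change over the mean of the single agents was 2.53 ± 0.30 (SE, edgeR adjusted p = 0.0231), made of 1.01 over the CD40 agonist (adjusted p = 0.425) and 4.04 over CSF1Ri (adjusted p = 0.0066). Tnfsf9 encodes 4-1BB ligand, which co-stimulates T cells. It had 122, 48.3 and 91.3 CPM in the combination, against 50.6, 34.3 and 20.7 CPM with the CD40 agonist, 14.5, 12.9 and 5.45 CPM with CSF1Ri and 16.3, 9.27 and 15.3 CPM in Control. Only combination replicate 2 fell within the single-agent range (log2 fold change 2.15 ± 0.38, adjusted p = 0.0408).

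Cd40, the receptor that the antibody binds (ENSMUSG00000017652, chr2:165055627-165072948), had 303, 189 and 239 CPM in the combination, against 99.1, 129 and 121 CPM with the CD40 agonist, 62, 60.4 and 109 CPM with CSF1Ri and 140, 98.1 and 151 CPM in Control. The lowest combination library was above all 9 others, and the Control mean lay above both single agents (log2 fold change 1.36 ± 0.22, adjusted p = 0.0303). Cd69, an early activation marker of lymphoid and myeloid cells (ENSMUSG00000030156, chr6:129267325-129275436), had 241, 286 and 212 CPM in the combination, against 74.8, 97.4 and 64.1 CPM with the CD40 agonist, 139, 149 and 80.8 CPM with CSF1Ri and 32.8, 40.5 and 61.3 CPM in Control. Here each agent's mean lay above Control, no combination library overlapped another group, and the gap to the CD40 agonist (1.65) was larger than that to CSF1Ri (1.01) (main log2 fold change 1.33 ± 0.23, adjusted p = 0.0408). Of the 19 co-stimulation, checkpoint and activation genes tested, Cd40, Cd69 and Tnfsf9 rose and 0 fell, against 0.412% and 0.119% of all genes. The same shares apply to the list counts below. The lists were chosen with earlier results of these data known, so nothing is read from such counts. The list's median log2 fold change was 0.51, against 0.02 over all genes. Cd86 (0.11, adjusted p = 0.909) and Cd80 (0.19, adjusted p = 0.719), the ligands of CD28, and Cd274, which encodes PD-L1 (0.79, adjusted p = 0.194), did not pass the test.

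Tnfaip3 encodes A20, an enzyme that limits NF-kB signaling and is itself induced by it, and Nfkb2 encodes p100, the precursor of the p52 subunit of the non-canonical pathway downstream of CD40. Their promoters are shown because both hold an NF-kB-like motif, GGG and TTTCC with any 2 bases between them. The first RefSeq window of each gene in the table is shown. These windows run from 250 bases before to 50 after the start on GRCm38.p6, at chr10:19015361-19015660 on the minus strand for Tnfaip3 and chr19:46304487-46304786 on the plus strand for Nfkb2, written 5′ to 3′ on the gene's strand. Capitals mark the NF-kB-like letters and, in Tnfaip3, the AP-1-like letters TGANTCA as well, found on either strand and not overlapping one another.
Tnfaip3: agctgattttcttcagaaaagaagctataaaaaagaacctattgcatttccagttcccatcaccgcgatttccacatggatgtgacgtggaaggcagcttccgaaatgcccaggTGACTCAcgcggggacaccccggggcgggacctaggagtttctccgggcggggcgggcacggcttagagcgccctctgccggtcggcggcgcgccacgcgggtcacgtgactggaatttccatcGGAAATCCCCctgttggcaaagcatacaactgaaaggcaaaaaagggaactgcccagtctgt
Nfkb2: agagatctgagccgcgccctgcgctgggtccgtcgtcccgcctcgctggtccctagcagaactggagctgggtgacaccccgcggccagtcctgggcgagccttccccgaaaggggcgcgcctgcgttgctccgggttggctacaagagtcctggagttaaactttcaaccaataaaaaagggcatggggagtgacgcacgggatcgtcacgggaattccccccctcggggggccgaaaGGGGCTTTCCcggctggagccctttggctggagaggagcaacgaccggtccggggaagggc

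Tnfaip3 had 570, 734 and 439 CPM in the combination, against 251, 228 and 254 CPM with the CD40 agonist, 224, 206 and 93.2 CPM with CSF1Ri and 95.7, 64.6 and 118 CPM in Control. Both single agents had means above Control, and all combination libraries were above those (log2 fold change 1.49 ± 0.26, adjusted p = 0.0408). Nfkb2 had 75.2, 78 and 83.2 CPM in the combination, against 47.5, 41.7 and 49.2 CPM with the CD40 agonist, 47.6, 49.2 and 50.2 CPM with CSF1Ri and 57, 64.1 and 60.7 CPM in Control. Each single-agent library was below each Control library, and each combination library above them (log2 fold change 0.73 ± 0.11, adjusted p = 0.0273). Of 24 genes listed as NF-kB subunits, regulators and feedback genes these 2 rose and 0 fell, against 0.412% and 0.119% of all genes. The list's median log2 fold change was 0.55. Without combination replicate 2 that median was 0.34 and 1 gene was called. Nfkbia, which encodes the inhibitor IkB-alpha, stood at 1640 ± 445 CPM in the combination, against 942 ± 214 CPM with the CD40 agonist, 645 ± 224 CPM with CSF1Ri and 437 ± 21 CPM in Control (SD, n = 3 each) and did not pass (1.07 ± 0.23, adjusted p = 0.0682).

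Atf3, a stress-induced transcription factor, had 527, 447 and 377 CPM in the combination, against 367, 253 and 250 CPM with the CD40 agonist, 131, 88.3 and 67.2 CPM with CSF1Ri and 80, 88.8 and 71 CPM in Control. The groups did not overlap between the combination and any other, though the CD40 agonist held most of the distance from CSF1Ri (gaps of 0.64 and 2.24, main log2 fold change 1.44 ± 0.20, adjusted p = 0.0273). Jun, a subunit of AP-1, had 138, 128 and 121 CPM in the combination, against 124, 105 and 112 CPM with the CD40 agonist, 51.5, 57.4 and 49.1 CPM with CSF1Ri and 65.1, 73 and 54 CPM in Control, and overlapped the CD40 agonist (0.74 ± 0.12, adjusted p = 0.0303). Of 27 early response genes Atf3 and Jun rose and 0 fell (median 0.36), against 0.412% and 0.119% of all genes. In the inflammatory cytokine list Tnf and Tnfsf9 rose of 23 (median 0.61, or 0.37 with 3 called without combination replicate 2). Il6 (0.7, adjusted p = 0.253) and Il12b (3.26, adjusted p = 0.0596), cytokines of activated macrophages and dendritic cells, did not pass.

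**Figure D2:**
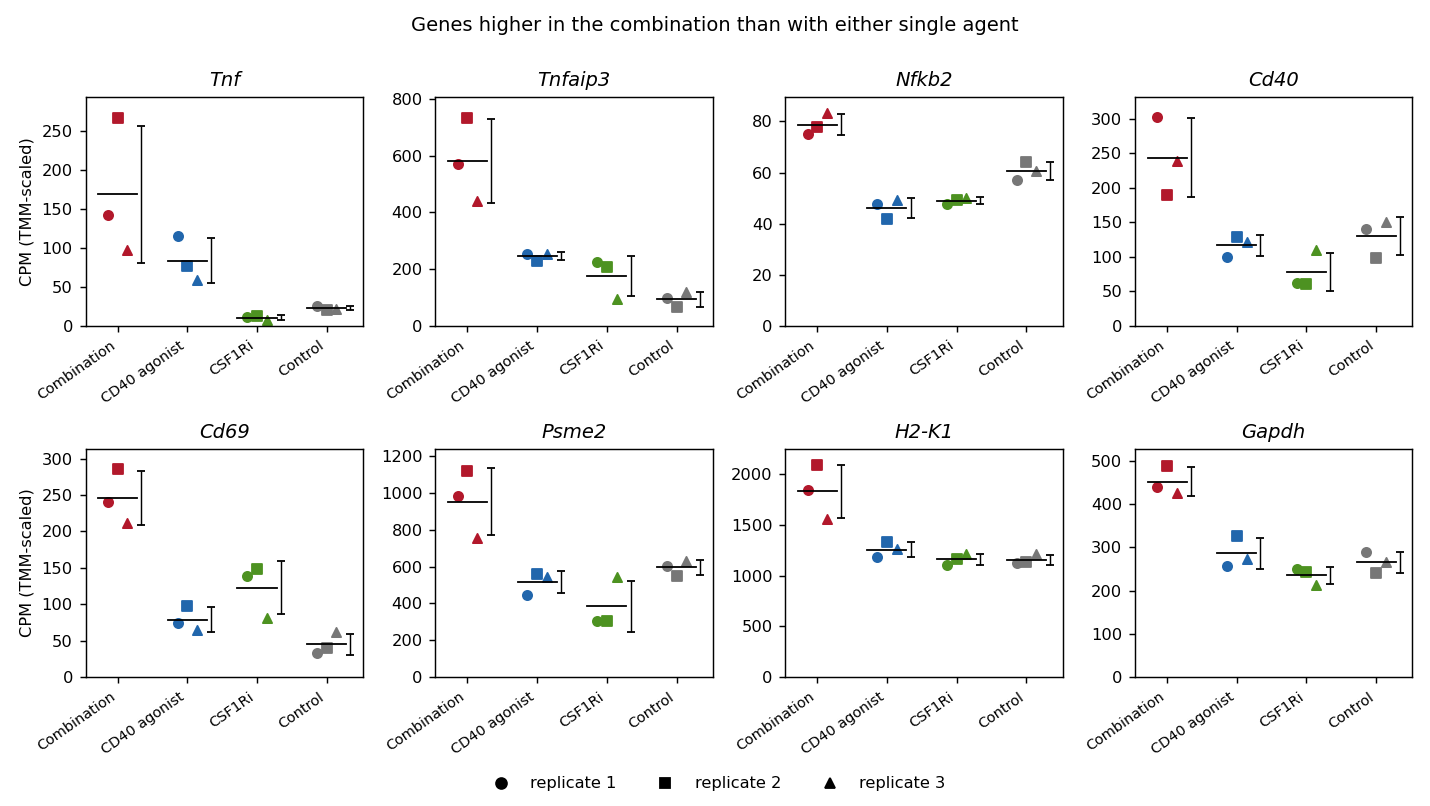
Points are single libraries of 8 genes higher in the combination, in TMM-scaled CPM on linear axes from 0, with the group mean as a line and the SD as a bar (n = 3), in the order combination, CD40 agonist, CSF1Ri and Control. Combination libraries lie above the libraries of all other groups for each gene shown other than Tnf, whose replicate 3 (96.3 CPM) was below CD40 agonist replicate 1 (115 CPM).

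Of the 26 interferon gamma response genes 4 rose, against 0.412% of all genes: Gbp2, Gbp2b, Cxcl10 and Iigp1. Promoters are shown for Gbp2 and Gbp2b, neighbouring guanylate-binding GTPases that act against intracellular microbes, and for Cxcl10, a chemokine that draws CXCR3-bearing T cells, because each holds an interferon-response-like motif, GAAA repeated with any 2 bases between, searched after the data had been seen. The windows are chr3:142620413-142620712 (plus strand), chr3:142594597-142594896 (plus strand) and chr5:92348840-92349139 (minus strand), from RefSeq on GRCm38.p6. Capitals mark that motif and the AP-1-like TGANTCA on either strand.
Gbp2: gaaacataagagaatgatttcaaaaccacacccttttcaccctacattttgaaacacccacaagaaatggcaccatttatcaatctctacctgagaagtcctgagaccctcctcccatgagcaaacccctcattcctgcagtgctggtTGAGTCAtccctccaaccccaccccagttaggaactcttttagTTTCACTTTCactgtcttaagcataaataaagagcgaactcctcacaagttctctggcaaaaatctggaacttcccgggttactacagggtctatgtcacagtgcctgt
Gbp2b: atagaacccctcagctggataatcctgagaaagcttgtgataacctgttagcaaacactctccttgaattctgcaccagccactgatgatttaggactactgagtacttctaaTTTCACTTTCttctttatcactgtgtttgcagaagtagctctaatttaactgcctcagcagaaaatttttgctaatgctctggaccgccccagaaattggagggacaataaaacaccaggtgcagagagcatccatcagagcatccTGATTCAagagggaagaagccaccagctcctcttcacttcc
Cxcl10: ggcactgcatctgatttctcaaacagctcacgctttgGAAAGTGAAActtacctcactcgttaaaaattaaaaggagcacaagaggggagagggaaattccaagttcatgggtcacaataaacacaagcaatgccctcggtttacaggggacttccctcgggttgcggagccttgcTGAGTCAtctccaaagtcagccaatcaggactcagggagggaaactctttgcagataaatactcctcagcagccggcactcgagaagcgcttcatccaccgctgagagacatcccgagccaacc

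Gbp2 (ENSMUSG00000028270) had 394, 1690 and 528 CPM in the combination, against 160, 208 and 229 CPM with the CD40 agonist, 163, 125 and 282 CPM with CSF1Ri and 236, 197 and 257 CPM in Control. All 3 combination libraries were above the other 9, and replicate 2 was far above its own group (log2 fold change 2.16 ± 0.39, adjusted p = 0.0449). Gbp2b had 32.9, 89 and 63.5 CPM in the combination, against 15.4, 21.5 and 32 CPM with the CD40 agonist, 5.6, 10.3 and 9.91 CPM with CSF1Ri and 10.5, 11.1 and 8.81 CPM in Control (2.14 ± 0.32, adjusted p = 0.0273). Cxcl10 had 37.4, 172 and 44.8 CPM in the combination, against 25.9, 11.4 and 18.4 CPM with the CD40 agonist, 12.4, 12.7 and 5.22 CPM with CSF1Ri and 23.9, 25.5 and 19.9 CPM in Control (2.63 ± 0.47, adjusted p = 0.0411). For both genes the lowest combination library exceeded every other library, by little for Gbp2b over CD40 agonist replicate 3. Reads of Gbp2, Gbp2b and their paralogs may be divided between copies, so single members of this family are uncertain.

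Iigp1, an interferon-induced GTPase, had 112, 1670 and 198 CPM in the combination, against 10.5, 18.3 and 67.1 CPM with the CD40 agonist, 21.6, 11.4 and 2.45 CPM with CSF1Ri and 23.2, 10.4 and 11 CPM in Control (5.08 ± 0.91, adjusted p = 0.0428). Gm4951, Cfb, Ly6i, Ly6a, Il18bp and Il21r, which are in none of the lists, also rose. Gm4951, the neighbour of Iigp1 on chromosome 18, had 46.5, 379 and 78.2 CPM in the combination, against 7.97, 6.25 and 14 CPM with the CD40 agonist and 3.26, 4.35 and 0.175 CPM with CSF1Ri (5.09 ± 0.81, adjusted p = 0.0303). Cfb, factor B of the alternative complement pathway, had 147, 2130 and 298 CPM in the combination, against 36.2, 61 and 105 CPM with the CD40 agonist and 31.3, 27.3 and 45.5 CPM with CSF1Ri (4.15 ± 0.66, adjusted p = 0.0303). Each of these genes was highest in combination replicate 2, yet replicates 1 and 3 were also above all single-agent libraries. Ly6i, of the Ly6 family of surface proteins, had 66, 1060 and 173 CPM in the combination against 14 to 47.8 CPM over both single agents (3.89 ± 0.67, adjusted p = 0.0393). Its relative Ly6a had 49.2, 139 and 93.7 CPM in the combination, against 27.3, 36.2 and 51.6 CPM with the CD40 agonist and 11.4, 3.56 and 12.4 CPM with CSF1Ri, and replicate 1 overlapped the CD40 agonist (2.33 ± 0.38, adjusted p = 0.0318). Il18bp, the secreted inhibitor of IL-18, had 28.5, 107 and 38.5 CPM in the combination, against 7.59, 15.5 and 18.3 CPM with the CD40 agonist and 4.28, 8.84 and 7.49 CPM with CSF1Ri (2.58 ± 0.43, adjusted p = 0.0318). Il21r, the receptor chain for IL-21, was more even, with 21.5, 22.8 and 33 CPM in the combination against 6.41, 12.1 and 12.9 CPM with the CD40 agonist and 6.62, 6.07 and 5.98 CPM with CSF1Ri (1.67 ± 0.26, adjusted p = 0.0303).

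Of the 26 listed interferon gamma genes 0 fell, and 24 were higher than both single agents by sign, against 34% of all genes. The list's median log2 fold change was 1.67. Without combination replicate 2 that median was 0.89 and 1 gene was called. Summed over the list, levels were 3230 to 12600 CPM in the combination, 1670 to 2470 with the CD40 agonist, 1920 to 3020 with CSF1Ri and 2410 to 2860 in Control, so the highest single-agent library was just below the lowest combination library. Of 27 type I interferon genes 0 were called in either direction, with a median of 0.61, or 0.27 without combination replicate 2. Across all 85 genes, combination replicate 2 was the farthest of its group from the single agents for 42, replicate 1 for 26 and replicate 3 for 17, against 34.7%, 35.1% and 30.3% of all genes. In 20 of the 66 higher genes and 0 of the 19 lower genes the combination libraries spanned over 2-fold. Combination replicate 2 also differed in marker sums. Its macrophage markers summed to 33300 CPM, against 13200 and 16600 CPM in replicates 1 and 3. Their mean log2 CPM was lower in it, at 6.35 against 7.54 and 7.09. Its classical monocyte genes summed to 20100 CPM, against 6840 and 8730 CPM. The part of these differences in the other results was not tested.

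**Figure D3:**
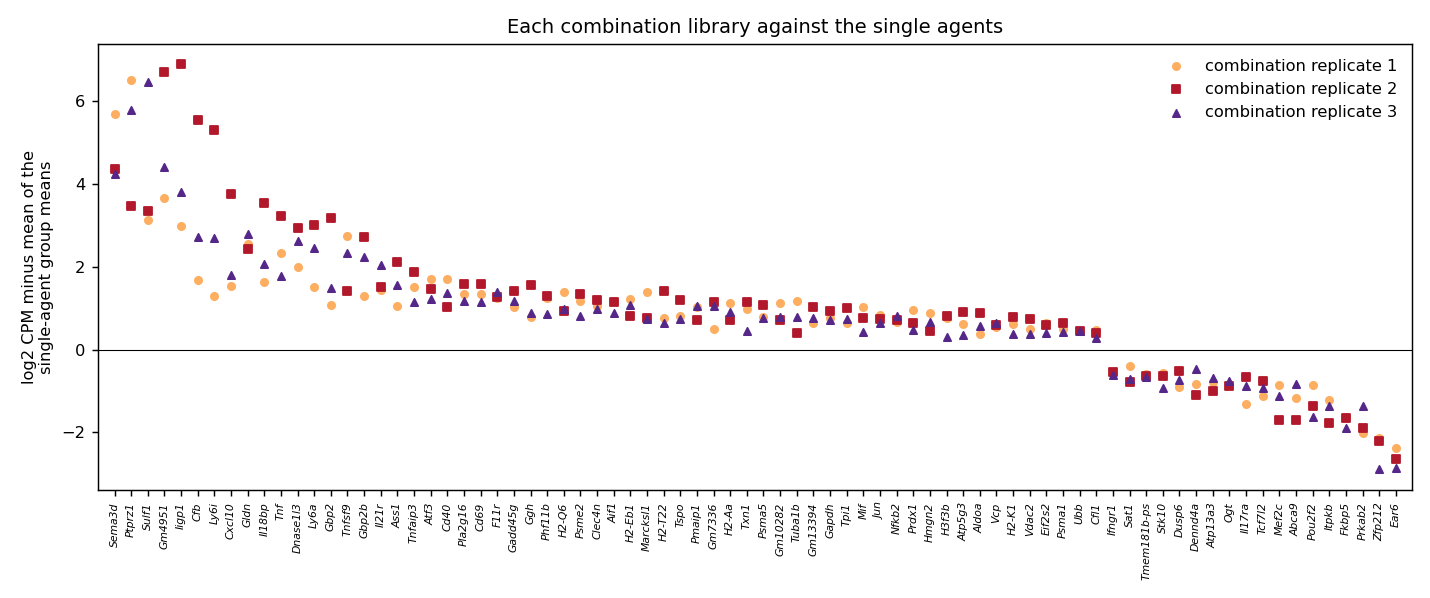
Points give log2 CPM in the 3 combination libraries minus the mean of the single-agent group means. They cover each gene beyond both agents with counts in every group, ordered by the main log2 fold change. Genes such as Iigp1, Gm4951, Cfb and Ly6i show replicate 2 (squares) far above replicates 1 and 3, while genes such as Ubb, Ifngr1 and Fkbp5 show the 3 libraries close together.

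Of the antigen presentation genes, 4 of 20 for class I and 2 of 11 for class II rose, against 0.412% of all genes. H2-K1, a classical MHC class I heavy chain, had 1840, 2090 and 1560 CPM in the combination, against 1180, 1330 and 1260 CPM with the CD40 agonist, 1110, 1160 and 1210 CPM with CSF1Ri and 1120, 1130 and 1210 CPM in Control (log2 fold change 0.60 ± 0.09, adjusted p = 0.0301). Psme2, a subunit of the PA28 proteasome activator, had 983, 1120 and 757 CPM in the combination, against 447, 560 and 545 CPM with the CD40 agonist, 306, 303 and 543 CPM with CSF1Ri and 605, 551 and 631 CPM in Control (1.09 ± 0.19, adjusted p = 0.0393). For both, the combination stood clear of the other 9 libraries. H2-T22, a non-classical class I gene, had 220, 342 and 200 CPM in the combination against 118 to 141 CPM over the 6 single-agent libraries (0.98 ± 0.16, adjusted p = 0.0303), and H2-Q6 passed at 1.09 ± 0.21 (adjusted p = 0.0496). Class I genes are near-identical to their neighbours, so the division of counts among them is uncertain. Of 20 class I presentation genes these 4 rose and 0 fell, all 20 were higher than both single agents by sign against 34% of all genes, and the median was 0.75, or 0.56 without combination replicate 2. B2m, the class I light chain, stood at 5830 ± 829 CPM in the combination, 4240 ± 454 with the CD40 agonist, 4000 ± 142 with CSF1Ri and 4110 ± 121 in Control (SD, n = 3 each) and lay just outside the threshold (adjusted p = 0.0502).

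MHC class II differed in another way. H2-Aa, the alpha chain of I-A, had 7110, 5420 and 6120 CPM in the combination, against 3900, 5530 and 6740 CPM with the CD40 agonist, 1780, 1880 and 2560 CPM with CSF1Ri and 4310, 3810 and 4210 CPM in Control. H2-Eb1, the beta chain of I-E, had 4150, 3140 and 3760 CPM in the combination, against 2230, 3130 and 4060 CPM with the CD40 agonist, 897, 973 and 1340 CPM with CSF1Ri and 2230, 1940 and 2290 CPM in Control. Both genes overlapped widely between the combination and the CD40 agonist (0.21 and 0.23 on the log2 scale, adjusted p = 0.855 and 0.849), and the gap lay against CSF1Ri (1.58 and 1.78, adjusted p = 0.00911 and 0.00905). Their main log2 fold changes were 0.90 ± 0.16 (adjusted p = 0.0455) and 1.01 ± 0.18 (adjusted p = 0.0422). With library totals in place of TMM, 0 class II genes were called. Of 11 class II genes these 2 rose and 0 fell, with a median of 0.63, made of 0.08 against the CD40 agonist and 1.12 against CSF1Ri. Dendritic cells and B cells also express class II. The sums of their tested marker genes were 151 to 1350 and 111 to 212 CPM in the combination, 829 to 1040 and 299 to 381 with the CD40 agonist, 489 to 1060 and 160 to 203 with CSF1Ri, and 841 to 1130 and 283 to 319 in Control. The 151 CPM of dendritic cell markers was combination replicate 2, against 1280 and 1350 CPM in replicates 1 and 3. The part of these cells in the class II result was not tested.

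Psma5, Psma1, Vcp and Ubb, which are in none of the lists, also rose. Psma5, an alpha subunit of the core proteasome, had 275, 335 and 268 CPM in the combination, against 198, 183 and 176 CPM with the CD40 agonist, 125, 135 and 153 CPM with CSF1Ri and 168, 168 and 164 CPM in Control (0.87 ± 0.10, adjusted p = 0.0231). The combination was clear of every other library. Psma1, another alpha subunit, rose by 0.52 ± 0.09 (adjusted p = 0.0393) and Vcp, the ATPase that extracts ubiquitinated proteins, by 0.60 ± 0.11 (adjusted p = 0.0408). Ubb, a polyubiquitin gene, had 5080, 5060 and 5060 CPM in the combination, against 4120, 4840 and 4430 CPM with the CD40 agonist, 3360, 3230 and 2820 CPM with CSF1Ri and 3000, 2780 and 2840 CPM in Control (0.44 ± 0.08, adjusted p = 0.0408). Its 3 combination libraries were nearly equal and above all others, while the CD40 agonist was between them and CSF1Ri.

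Gapdh, Tpi1 and Aldoa, enzymes of glycolysis, also rose. Gapdh had 440, 489 and 426 CPM in the combination, against 257, 327 and 273 CPM with the CD40 agonist, 250, 244 and 213 CPM with CSF1Ri and 289, 241 and 267 CPM in Control (0.80 ± 0.11, adjusted p = 0.0273). Tpi1 had 210, 269 and 224 CPM in the combination against 100 to 150 CPM over the single-agent libraries (0.79 ± 0.12, adjusted p = 0.0303), and Aldoa 1310, 1860 and 1490 CPM against 836 to 1100 CPM (0.62 ± 0.12, adjusted p = 0.0487). None of the 3 overlapped a single-agent library. Gapdh has many processed pseudogenes that can share its counts. Of 22 glycolysis and hypoxia genes these 3 rose and 0 fell, against 0.412% and 0.119% of all genes, and the median was 0.24. Ass1, argininosuccinate synthase of the arginine cycle, had 307, 643 and 436 CPM in the combination, against 120, 170 and 234 CPM with the CD40 agonist, 159, 112 and 126 CPM with CSF1Ri and 195, 157 and 236 CPM in Control (1.60 ± 0.25, adjusted p = 0.0301). Txn1, thioredoxin (0.88 ± 0.14, adjusted p = 0.0301), and Prdx1, a peroxiredoxin (0.69 ± 0.12, adjusted p = 0.0393), also rose. Mif, a cytokine stored in macrophages, rose by 0.76 ± 0.14 (adjusted p = 0.0422), and Tspo, an outer mitochondrial membrane protein of activated microglia and macrophages, by 0.93 ± 0.12 (adjusted p = 0.0273).

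The other higher genes had varied roles. Pla2g16, a phospholipase, had 58.1, 69.3 and 51.8 CPM in the combination against 17.3 to 29.4 CPM over the single-agent libraries (1.36 ± 0.19, adjusted p = 0.0273). Ggh, a folate hydrolase, had 103, 178 and 111 CPM against 53.6 to 68.6 CPM (1.12 ± 0.17, adjusted p = 0.0273), and Gadd45g, a stress-inducible gene, 36.4, 47.2 and 40 CPM against 10.5 to 31.2 CPM (1.18 ± 0.21, adjusted p = 0.0449). None of these overlapped the single agents. Gldn, gliomedin of peripheral nerve, had 7.32, 6.68 and 8.6 CPM in the combination against 0.472 to 2.04 CPM over the single-agent libraries, also without overlap (2.61 ± 0.45, adjusted p = 0.0394). Phf11b (1.12) and Marcksl1, a relative of the actin-binding MARCKS (0.99), were followed by Tuba1b, an alpha tubulin (0.81), the chromatin genes Hmgn2 (0.67) and H3f3b (0.64), the mitochondrial genes Atp5g3 (0.64) and Vdac2 (0.54), the translation factor Eif2s2 (0.54) and cofilin, Cfl1 (0.39). Gm7336 (0.92) and Gm13394 (0.81), annotated as processed pseudogenes, and Gm10282 (0.87) may share counts with other copies.

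Aif1 and Clec4n were each the only called gene of a list. Aif1, which encodes the actin-binding protein IBA1, had 314, 306 and 253 CPM in the combination, against 157, 220 and 275 CPM with the CD40 agonist, 80.1, 75.2 and 124 CPM with CSF1Ri and 225, 189 and 194 CPM in Control, and overlapped the CD40 agonist (1.03 ± 0.19, adjusted p = 0.0485). It was the only called gene of 24 for macrophage identity and complement (median 0.07), and with library totals it was not called. That median was -0.06 with library totals and -0.1 without combination replicate 2, where 0 genes of the list were called higher and 1 lower. Clec4n, which encodes the fungal pattern receptor dectin-2, had 185, 204 and 175 CPM in the combination, against 105, 145 and 122 CPM with the CD40 agonist and 83, 66.4 and 48.9 CPM with CSF1Ri, without overlap (1.06 ± 0.19, adjusted p = 0.0422). It was the only called gene among 22 Toll-like receptors and pattern receptors (median 0.12). That median was -0.01 with library totals and -0.22 without combination replicate 2, where 0 genes of the list were called higher and 1 lower. Pmaip1, which encodes the pro-apoptotic protein NOXA, had 310, 249 and 314 CPM in the combination, against 272, 250 and 233 CPM with the CD40 agonist and 78.2, 91.3 and 112 CPM with CSF1Ri, and so overlapped the CD40 agonist (0.92 ± 0.17, adjusted p = 0.0455). Csf1r itself stood at 839 ± 322 CPM in the combination, 980 ± 99 with the CD40 agonist, 680 ± 81.1 with CSF1Ri and 859 ± 16.6 in Control (SD, n = 3 each) and did not pass (0.04 ± 0.19, adjusted p = 0.961). Its ligand gene Csf1 did not pass either (0.54 ± 0.26, adjusted p = 0.371), nor did Csf2, the gene of GM-CSF (3.07 ± 1.63, adjusted p = 0.442), which was below 1 CPM on average in every group.

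Several of the largest fold changes belonged to genes of low level. Bub1b, a kinase of the spindle checkpoint, had 10.1, 3.86 and 15.5 CPM in the combination, against 6.35, 6.52 and 1.37 CPM with the CD40 agonist, 0 in all 3 CSF1Ri libraries and 3.4, 2.78 and 2.71 CPM in Control. Against a floor of 3 counts over the CSF1Ri group it was at least 296-fold higher in the combination than with CSF1Ri, or 210-fold without combination replicate 3, and it overlapped the CD40 agonist. Bub1b was the only called gene of 24 cell cycle genes, whose summed levels were 855, 465 and 695 CPM in the combination, 420, 464 and 581 CPM with the CD40 agonist, 315, 253 and 258 CPM with CSF1Ri and 274, 290 and 286 CPM in Control. All 24 were higher than both single agents by sign, against 34% of all genes. The list's median was 1.5, made of 0.62 against the CD40 agonist and 2.04 against CSF1Ri. Combination replicate 2 was at the level of the CD40 agonist. Lig4, a DNA ligase of end joining, Kctd4, Tcrg-C4, Rps4l and AY761185 were also at 0 in all CSF1Ri libraries, and were at least 164-fold, 66.8-fold, 141-fold, 78.4-fold and 169-fold higher in the combination. Lig4 had 5.85, 3.63 and 6.84 CPM in the combination, against 1.09, 0 and 0.174 CPM with the CD40 agonist and 1.58, 2.72 and 2.24 CPM in Control, and stood clear of the other libraries. Kctd4 had 4.66, 1.66 and 0.332 CPM in the combination, against 0.0294, 0 and 0 CPM with the CD40 agonist and 0.395, 1.08 and 1.31 CPM in Control, so replicate 3 was below every Control library. Without combination replicate 1 its bound was 30-fold. Rps4l, a pseudogene, had 4.11, 1.83 and 1.86 CPM in the combination, against 1.26, 1.41 and 1.22 CPM with the CD40 agonist and 0.82, 1.96 and 1.81 CPM in Control, and AY761185 had 10.9, 1.32 and 4.67 CPM in the combination, against 3.12, 2.36 and 2.62 CPM with the CD40 agonist and 0.942, 1.04 and 1.04 CPM in Control. Rps4l overlapped Control, AY761185 overlapped the CD40 agonist, and without combination replicate 1 their bounds were 55.7-fold and 90.3-fold. The bound was 93.3-fold for Tcrg-C4 without combination replicate 2 and 143-fold for Lig4 without combination replicate 3. Such a group at 0 was found for 2.23% of all genes with CSF1Ri.

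Sema3d, a secreted guidance factor, Ptprz1, a receptor phosphatase of neural crest and glial cells, and Sulf1, a sulfatase of the matrix, are not usual macrophage genes. Ptprz1 had 14.4, 1.69 and 8.78 CPM in the combination, against 0.765, 0.0786 and 0.116 CPM with the CD40 agonist and at most 0.0749 CPM with CSF1Ri (6.21 ± 1.0, adjusted p = 0.0303). Sema3d had 4.46, 1.76 and 1.61 CPM (6.35 ± 1.11, adjusted p = 0.0408) and Sulf1 0.926, 1.08 and 9.85 CPM in the combination (5.93 ± 1.01, adjusted p = 0.0393), both against at most 0.146 CPM in any single-agent library. Of the 11 melanocyte and melanoma markers 8 were tested and 0 called (1 without combination replicate 2), and their summed level was 115, 26.8 and 54.9 CPM in the combination, 60.1, 38 and 41 CPM with the CD40 agonist, 16, 11.8 and 11.2 CPM with CSF1Ri and 18.1, 19.9 and 24.9 CPM in Control. Mlana, Tyrp1 and Sox10 of that list were at 0 in every CSF1Ri library, but all 3 were also low in Control. They averaged 0.67, 0.877 and 0 CPM there, and 7.77, 7.98 and 1.15 CPM in the combination. Over all 12 libraries Mlana was at 0 in 4, Tyrp1 in 6 and Sox10 in 8. The 11 fibroblast markers summed to 108 to 141 CPM in the combination, 61.7 to 177 with the CD40 agonist, 36.8 to 167 with CSF1Ri and 81.4 to 167 in Control, with 0 called. Of the 10 keratinocyte markers 9 were tested and 0 called, or 2 without combination replicate 2. These 9 summed to 8.27 to 129 CPM in the combination, 14.5 to 33.3 with the CD40 agonist, 11.7 to 16.5 with CSF1Ri and 22.9 to 83.4 in Control. The part of tumor or stromal RNA in these genes was not tested. Tcrg-C4, a constant segment of the gamma T cell receptor, stood at 3.51, 7.86 and 2.68 CPM in the combination and 2.09, 2.04 and 0.552 CPM with the CD40 agonist, while 13 T cell markers summed to 71.2 to 109 CPM in the combination, 135 to 204 with the CD40 agonist, 59.8 to 81.2 with CSF1Ri and 127 to 166 in Control.

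Among the 19 lower genes the combination lay below all 9 other libraries in every case, which the choice of these genes favours. Over all genes it lay outside all 9, in either direction, for 4.08%. Ifngr1, the ligand-binding chain of the interferon gamma receptor (ENSMUSG00000020009, chr10:19591949-19610229), had 733, 749 and 712 CPM in the combination, against 1040, 1130 and 1080 CPM with the CD40 agonist, 1100, 1100 and 1080 CPM with CSF1Ri and 1100, 1200 and 1040 CPM in Control. The other 3 groups overlapped one another fully, and the combination stood alone below them (log2 fold change -0.57 ± 0.08, adjusted p = 0.0273). Il17ra, the shared receptor chain for IL-17 cytokines, had 57.9, 91.1 and 78.6 CPM in the combination, against 140, 109 and 113 CPM with the CD40 agonist, 161, 195 and 165 CPM with CSF1Ri and 168, 173 and 173 CPM in Control (-0.93 ± 0.15, adjusted p = 0.0318). For Il17ra the CD40 agonist was intermediate. Dusp6, a phosphatase that inactivates ERK and is induced by it, had 307, 404 and 345 CPM in the combination, against 509, 493 and 460 CPM with the CD40 agonist, 682, 649 and 718 CPM with CSF1Ri and 651, 652 and 678 CPM in Control (-0.71 ± 0.10, adjusted p = 0.0273). Its levels were stepped in the same way, with CSF1Ri and Control alike and the combination lowest.

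The transcription factors in this direction were Mef2c, Tcf7l2, Pou2f2 and the zinc finger gene Zfp212. Mef2c, which acts in myeloid and B cell differentiation (ENSMUSG00000005583, chr13:83504034-83667080), had 102, 56.3 and 85.4 CPM in the combination, against 234, 252 and 230 CPM with the CD40 agonist, 150, 144 and 135 CPM with CSF1Ri and 205, 170 and 201 CPM in Control. Here the single agents lay on opposite sides of Control and the combination below CSF1Ri, with gaps of -1.55 to the CD40 agonist (adjusted p = 0.0793, the smallest of any gene in that comparison) and -0.81 to CSF1Ri (main log2 fold change -1.18 ± 0.17, adjusted p = 0.0273). Tcf7l2, an effector of Wnt signaling, had 22.5, 28.4 and 25.4 CPM in the combination, against 49.9, 48.9 and 44.4 CPM with the CD40 agonist, 51.8, 50.7 and 45.6 CPM with CSF1Ri and 60.3, 62.7 and 55.4 CPM in Control (-0.93 ± 0.13, adjusted p = 0.0273). The single agents overlapped each other and the combination was well below both. Pou2f2, which encodes OCT2, had 50.4, 35.6 and 29.3 CPM in the combination, against 116, 80 and 89.8 CPM with the CD40 agonist, 77.5, 75.8 and 115 CPM with CSF1Ri and 134, 169 and 117 CPM in Control (-1.26 ± 0.23, adjusted p = 0.0438). It was the only called gene of 18 patrolling monocyte genes (median -0.6). By sign 0 of these were higher and 10 lower than both single agents, against 34% and 32.7% of all genes. That list summed to 2050 to 3110 CPM in the combination, 3640 to 4330 with the CD40 agonist, 2400 to 2930 with CSF1Ri and 4520 to 4680 in Control.

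Fkbp5, a co-chaperone of the glucocorticoid receptor that glucocorticoids induce (ENSMUSG00000024222, chr17:28399094-28517527), had 12.1, 12 and 10.1 CPM in the combination, against 35.3, 24.2 and 19.9 CPM with the CD40 agonist, 47.4, 56.8 and 60 CPM with CSF1Ri and 27.9, 27.8 and 25.9 CPM in Control (-1.74 ± 0.21, adjusted p = 0.0231). The combination libraries were close together and lowest, and CSF1Ri was above Control. Of 12 glucocorticoid-induced genes it alone fell and 0 rose (median -0.32), and Tsc22d3, which encodes GILZ, did not pass (-0.74 ± 0.21, adjusted p = 0.136). Itpkb, an inositol trisphosphate kinase, had 12.7, 8.71 and 11.6 CPM in the combination, against 30.2, 20 and 27.3 CPM with the CD40 agonist, 29.7, 35.1 and 39.6 CPM with CSF1Ri and 28.7, 24 and 23.1 CPM in Control (-1.44 ± 0.22, adjusted p = 0.0273). Ogt, the enzyme that adds O-GlcNAc to proteins, had 154, 152 and 163 CPM in the combination, against 170, 204 and 245 CPM with the CD40 agonist, 360, 386 and 398 CPM with CSF1Ri and 322, 258 and 284 CPM in Control (-0.84 ± 0.13, adjusted p = 0.0273). Its combination libraries were only just below CD40 agonist replicate 1, and the gap to CSF1Ri (-1.29) was the larger.

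Sat1, the enzyme that starts polyamine breakdown, had 2360, 1810 and 1920 CPM in the combination, against 2930, 3330 and 3020 CPM with the CD40 agonist, 2780, 3200 and 3480 CPM with CSF1Ri and 4180, 3300 and 3620 CPM in Control (-0.62 ± 0.12, adjusted p = 0.0487). Prkab2, a regulatory subunit of AMPK, had 9.86, 10.7 and 15.6 CPM in the combination, against 47.4, 32.1 and 36.1 CPM with the CD40 agonist and 26.1, 62.4 and 46.4 CPM with CSF1Ri (-1.79 ± 0.34, adjusted p = 0.0496). The remaining lower genes included Stk10, a kinase of lymphocytes (-0.70), Dennd4a (-0.78), Atp13a3, a polyamine transporter (-0.82), Abca9 (-1.20) and the pseudogene Tmem181b-ps (-0.62). The pseudogene Gm11699 was at 0 in all combination libraries, at least 30.7-fold lower than with the CD40 agonist and 72.4-fold lower than with CSF1Ri, or 21-fold and 35.5-fold as the lowest bounds with 1 single-agent library left out. Ear6, a ribonuclease of eosinophils, had 0.98, 0.813 and 0.689 CPM in the combination, against 1.88, 1.57 and 2.06 CPM with the CD40 agonist, 11, 9.89 and 35 CPM with CSF1Ri and 3.13, 2.03 and 2.14 CPM in Control (-2.82 ± 0.51, adjusted p = 0.0449). Of 9 eosinophil markers 8 were tested, Ear6 among them. These 8 summed to 82.3 to 151 CPM in the combination, 143 to 207 with the CD40 agonist, 312 to 378 with CSF1Ri and 84.6 to 164 in Control. Prg2, the granule major basic protein, was at 0 on average in the combination and the CD40 agonist. The part of eosinophils in the Ear6 result was not tested.

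**Figure D4:**
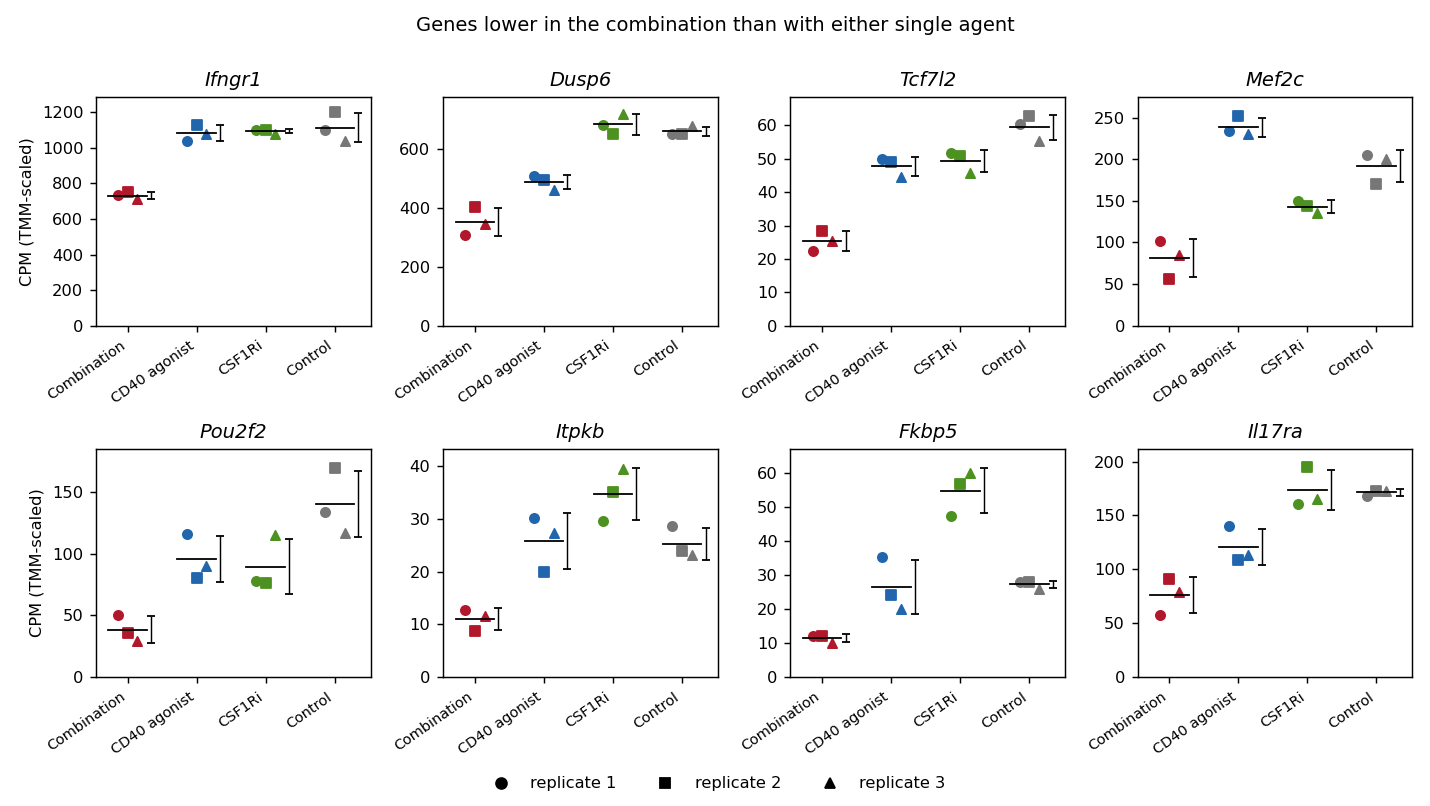
Points are single libraries of 8 genes lower in the combination, in TMM-scaled CPM on linear axes from 0, with the group mean as a line and the SD as a bar (n = 3), in the order combination, CD40 agonist, CSF1Ri and Control. In each panel all 3 combination libraries lie below the 9 others; for Ifngr1 and Tcf7l2 the single agents coincide, for Mef2c they lie on either side of Control, and for Fkbp5 CSF1Ri is highest.

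Whether the single agents also differed from each other was asked of the 85 genes in a comparison added after the data had been seen, CD40 agonist minus CSF1Ri. The rule used the same 6 libraries through their means and their spread, so the values are a description. The comparison called 62 of all genes (0.387%) and 15 of the 85, and nothing is read from one against the other. In 13 of these 15 the gene was higher in the combination and higher with the CD40 agonist than with CSF1Ri: Tnf (log2 fold change 3.03, adjusted p = 0.0182), Jun (1.11, 0.0182), Atf3 (1.6, 0.0236), F11r, a junctional adhesion protein (1.78, 0.019), Dnase1l3, a secreted nuclease of macrophages and dendritic cells (3.31, 0.0236), Pmaip1 (1.42, 0.019), H2-Aa (1.38, 0.019), H2-Eb1 (1.55, 0.019), Ubb (0.51, 0.0436), Bub1b, Tcrg-C4, AY761185 and Rps4l. The 2 lower genes, Ogt (-0.88, 0.0261) and Ear6 (-3.34, 0.0324), were lower with the CD40 agonist than with CSF1Ri. For these genes the CD40 agonist libraries lay on the side of the combination. The others did not pass, among them Nfkb2 (-0.09, adjusted p = 0.814), Ifngr1 (-0.01, 0.967), Tcf7l2 (-0.05, 0.923), Gbp2 (0.07, 0.97) and H2-K1 (0.12, 0.669).

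**Figure D5:**
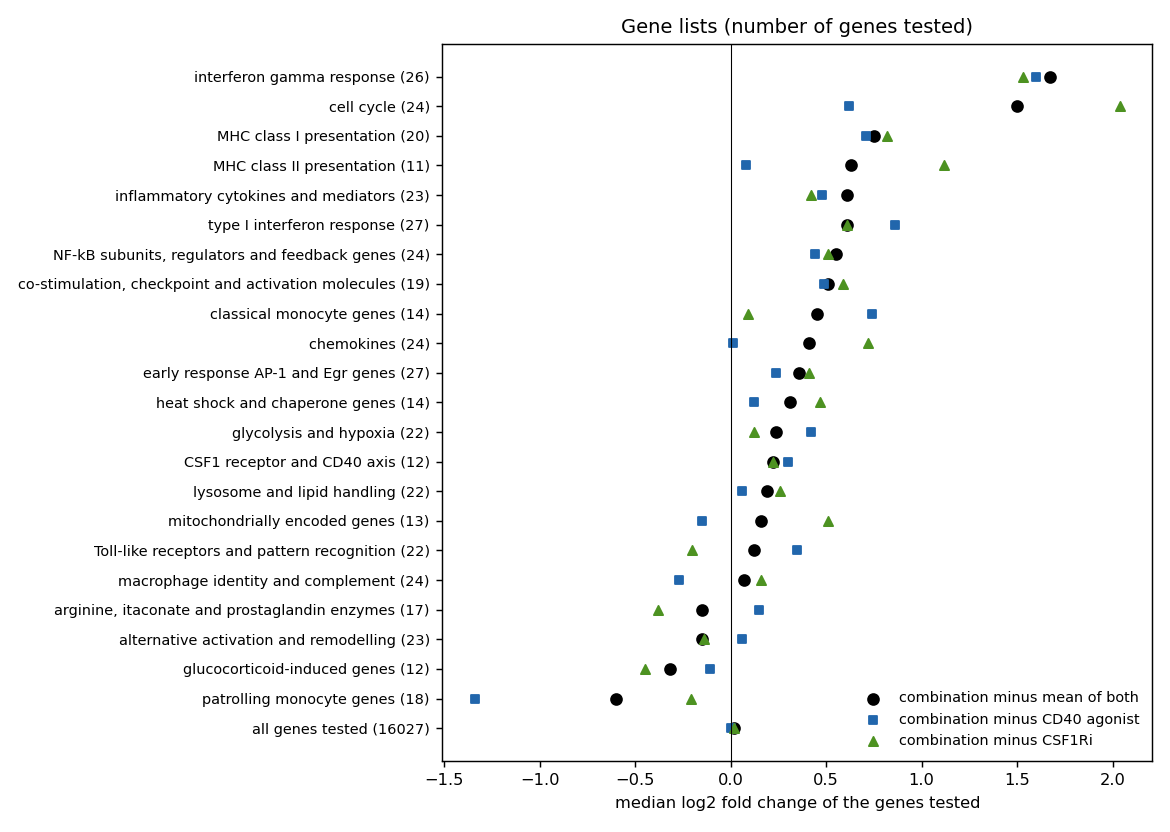
Points give the median log2 fold change of the genes tested in each of 22 pathway lists and over all genes, for the combination minus the mean of both single agents (circles), minus the CD40 agonist (squares) and minus CSF1Ri (triangles). Interferon gamma genes (1.67, 1.6 and 1.53) and class I genes (0.75, 0.71 and 0.82) have like medians in all 3 comparisons, whereas class II (0.63, 0.08 and 1.12) and cell cycle genes (1.5, 0.62 and 2.04) differ chiefly from CSF1Ri.

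The lists with 0 genes called in either direction were type I interferon, heat shock and chaperone genes (median 0.31), classical monocyte genes (0.45, but -0.11 without combination replicate 2 and -0.19 without the 3 libraries that stand apart), alternative activation and remodelling (-0.15), lysosome and lipid handling (0.19) and mitochondrially encoded genes (0.16, or 0.3 without combination replicate 2). Chemokines had Cxcl10 alone of 24 (median 0.41, made of 0.01 against the CD40 agonist and 0.72 against CSF1Ri). Without combination replicate 2 the chemokine median was 0.8 with 0 called, and limma voom also called 0. The arginine, itaconate and prostaglandin list had Ass1 higher and Sat1 lower of 17. The CSF1 receptor and CD40 axis list had Cd40 alone of 12 (median 0.22, or 0.09 without combination replicate 2). Neutrophil markers, 14 in number and with 0 called, had a median of 1.46 and summed to 933 to 2720 CPM in the combination, 478 to 655 with the CD40 agonist, 791 to 3320 with CSF1Ri and 564 to 1410 in Control. Ngp, Ltf and Lcn2 of that list lay above all single-agent libraries in the combination. By sign 6 of the 14 were higher than both single agents and 0 lower, against 34% and 32.7% of all genes. Other members averaged less in the combination than with CSF1Ri. Among them were Retnlg (24.2 against 387 CPM, and 20.4 with the CD40 agonist), Csf3r (175 against 503, and 145) and Cxcr2 (68.4 against 193, and 53.4). Against CSF1Ri alone 1 gene of the list was called lower and 0 higher. Ngp, a neutrophil granule protein, had 225, 155 and 860 CPM in the combination, against 107, 37.5 and 19.8 CPM with the CD40 agonist, 8.11, 0.0375 and 0 CPM with CSF1Ri and 0.0304, 18.8 and 1.44 CPM in Control (5.08 ± 1.38, adjusted p = 0.128). Ltf, lactoferrin, had 111, 60.7 and 346 CPM in the combination, against 39.5, 11 and 8.6 CPM with the CD40 agonist, 2.68, 0 and 0.554 CPM with CSF1Ri and 0, 11.6 and 0.234 CPM in Control (5.22 ± 1.27, adjusted p = 0.0933). Camp, cathelicidin, had 63, 20.6 and 184 CPM in the combination, against 23.6, 4.56 and 2.53 CPM with the CD40 agonist, 1.19, 0 and 0 CPM with CSF1Ri and 0.334, 3.83 and 0 CPM in Control (5.46 ± 1.3, adjusted p = 0.0871). The part of neutrophils in the other results was not tested. Basophil and mast cell, NK cell, endothelial, erythroid, and muscle and adipocyte marker lists also had 0 called. Against CSF1Ri alone 3 of the 11 tested NK cell and cytotoxic markers were called higher (1.24% of all genes) and 0 lower. They summed to 1150 to 1800 CPM in the combination, 1010 to 2030 with the CD40 agonist, 595 to 835 with CSF1Ri and 825 to 1120 in Control. Ifng of that list averaged 14.3, 16.1, 4.54 and 3.45 CPM in the same order. The part of NK cells in the interferon gamma results was not tested.

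Promoter windows from RefSeq were found for 59 of the 85 genes, 44 higher and 15 lower. The NF-kB-like letters were in 4 of the 44 (9.09%; Lig4, Nfkb2, Tnfaip3 and Txn1) and 0 of the 15, against 1.89% of all 27025 genes in the table. A gene is counted when any of its windows holds the letters, and the table has 3 windows for Nfkb2 and 2 for Tnfaip3. The AP-1-like letters of Nfkb2 are in another of its windows than the one printed. The AP-1-like letters were in 10 of the 44 (22.7%) and 1 of the 15 (6.67%; Mef2c), against 8.97%. The interferon-response-like letters were in 7 of the 44 (15.9%; Aif1, Bub1b, Cxcl10, Gbp2, Gbp2b, H2-T22 and Phf11b) and 0 of the 15, against 3.99%. These are matches of letters within 300 bases, not sites shown to be bound, and no test was made.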

How the data were processed

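RNA was sequenced from 12 samples in 4 groups of 3. Per the labels' protocols the kit kept no strand information, input was 50 ng of RNA, reads were paired and 75 bp long, and a lane held 6 libraries, not said which. Per the submitters' processing notes STAR, HTSeq and DESeq2 were used on mm10. The files hold, per the file headers, an estimated count and a TPM value for each transcript, a layout of transcript quantifiers. Which quantifier was used is not stated there. The deposited estimated counts carry no normalization, and the deposited TPM values helped only to settle the unit. Estimated counts are divided among transcripts that share sequence, so paralogs, pseudogenes and overlapping genes are uncertain.

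Of 111462 transcripts 98.9% matched GENCODE M21 (GRCm38). Estimated counts were summed per gene (34989 genes) and rounded. edgeR 4.0.16 (R 4.3.3) fitted all 12 libraries with a term per group, TMM scaling, the filterByExpr filter, which left 16027 genes, and quasi-likelihood F-tests in their robust form (residual degrees of freedom 8), and adjusted p-values are Benjamini-Hochberg over all genes tested. The weights were 1 for the combination and -0.5 for each single agent. SE was worked back from the log2 fold change and the F statistic of the fit, so it gives no measure of precision separate from the p-value. SD comes from 3 libraries. The script was tested on simulated data. These had a smaller spread between libraries than the real data (common coefficient of variation 61%), so nothing is read from that test here. Alternatives were DESeq2 1.42.0, limma 3.58.1 voom, other scaling and filters, fewer libraries and a replicate term. The samples were not treated as paired by replicate number: of 18 same-number pairs 0 correlated over 0.1 (range -0.06 to 0.06). Pairs of unlike number ranged from -0.11 to 0.07. Whether the numbers mark a shared day or batch is not stated, and these correlations cannot settle it. Nothing states how the replicates of a group were separated beyond the pooling of tumors, so p-values reflect only the spread between these pools. Floors of 3 counts per group cover counting error only.

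Genes named were the 15 highest and 15 lowest by log2 fold change beyond both agents, every called gene of 36 lists (22 pathway, 14 cell type), and Csf1r, Csf1, Il34, Csf2, Cd40 and Tnf. Il34 did not pass the filter on low counts. Other genes given values were chosen after their values were seen. The genes and lists were chosen with earlier results of these data known. The engineered alleles of the mice are not reported here.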

Additional observations from a re-analysis of the deposited data

How the results depend on the processing

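The counts of genes, in the order combination against the mean of both agents, beyond both, against the CD40 agonist and against CSF1Ri, were 85, 85, 0 and 311. RLE size factors (85, 85, 0, 315), library totals (91, 91, 2, 332), no filter on low counts (60, 60, 0, 230) and limma voom (74, 74, 7, 294) gave similar main counts. DESeq2 gave 809, 786, 275 and 1486, bias-adjusted edgeR 186, 185, 14 and 524, and the 9 libraries without Control 0, 0, 1 and 49. With 1 library left out the counts ranged from 0 to 116, 0 to 115, 0 to 6 and 22 to 429. No same-number pair correlated over 0.1, yet 7 of 12 libraries correlated best with one of their own number. With the replicate block the counts were 20, 20, 0 and 126. Without combination replicate 2 and CSF1Ri replicate 3 they were 227, 220, 8 and 632, and without CD40 agonist replicate 1 as well, a choice made after seeing the data, 156, 150, 0 and 656. At an adjusted p below 0.01 and a log2 fold change of at least 1.5 they were 0, 0, 0 and 12. Csf1r, which was not called, changed sign with library totals (-0.09), limma voom (-0.04), with 1 library left out (-0.32 without combination replicate 2 and -0.01 without CD40 agonist replicate 1, and up to 0.22 without combination replicate 1) and without the 2 (-0.34) or 3 (-0.38) libraries that stand apart. The cause of these shifts was not tested. Of the 85 genes, 84 were called by DESeq2, 65 with library totals, 63 by voom and 16 with the block.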
